A study of Mus musculus with 4 samples.

Results

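Zbtb16 and the 4 SALL genes, 5 of the 55335 genes counted, were described in cultures of spermatogonial stem cells (SSCs) from mouse testis, the germ cells that renew themselves and found sperm production. Sall1 and Zbtb16 were picked because they were higher in both Tex11PM/Y libraries, and Sall2, Sall3 and Sall4 because they belong to the family of Sall1. Each gene was matched by its symbol in the deposited FPKM table and joined to the count table by its identifier, and all 5 were present and tested. The cells came from mice of postnatal day 10, on a mixed C57/BL6*DBA2 strain background, were kept in standard culture medium with regular passage, and were collected on a cell sorter before RNA was taken. They were wild-type (WT) or carried the genotype labelled Tex11PM/Y, after the X-linked meiotic crossover gene Tex11. What PM stands for is not given in the labels. There were 2 libraries of each genotype. WT libraries are named by replicate number, and the 2 Tex11PM/Y libraries, whose columns share a name, are called A and B. The labels do not say whether libraries came from separate cultures or animals, so any p-value measures the spread between these libraries only.

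Zbtb16 encodes PLZF, a transcriptional repressor with a BTB domain and C2H2 zinc fingers, which undifferentiated spermatogonia need to keep self-renewing. SALL4, also a zinc-finger protein of undifferentiated spermatogonia, binds PLZF, and SALL proteins recruit the NuRD corepressor complex through a short motif at their amino end. PLZF is known to repress Kit, the receptor of differentiating spermatogonia, and to induce Ddit4, an inhibitor of mTORC1.

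Per the count table, in mm10, each gene lies on the minus strand. Zbtb16 (ENSMUSG00000066687.5) runs from 48654297 to 48836222 on chromosome 9, with 8 exonic blocks. Sall4 (ENSMUSG00000027547.17) runs from 168748332 to 168767201 on chromosome 2, with 4 blocks. Sall1 (ENSMUSG00000031665.7) runs from 89027235 to 89044162 on chromosome 8, with 4 blocks. Sall3 (ENSMUSG00000024565.10) lies on chromosome 18 from 80966376 to 80986771, with 3 blocks. Sall2 (ENSMUSG00000049532.11) lies on chromosome 14 from 52311172 to 52328762, with 3 blocks. The exons of Sall4 alone overlapped those of another counted gene, by 290 bases. That gene, Gm14261 on the opposite strand, held 7 to 33 counts per library, against 2748 to 5423 for Sall4, and the kit is not stated to keep strand.

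Sall1 is the member whose level varied most between libraries, so the bases just before its start are shown. The 250 bases, chr8:89044163-89044412 on the minus strand of GRCm38.p6 (the same assembly as mm10), come from RefSeq and end at the base before the gene's outermost start, with the searched motif that matched in capitals.

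Sall1: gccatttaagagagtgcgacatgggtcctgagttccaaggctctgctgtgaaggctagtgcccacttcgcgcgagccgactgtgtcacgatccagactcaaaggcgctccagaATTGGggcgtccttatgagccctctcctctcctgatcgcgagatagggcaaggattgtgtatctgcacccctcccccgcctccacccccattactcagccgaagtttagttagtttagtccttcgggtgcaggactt

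The capitals mark CCAAT read on the opposite strand (ATTGG), found 1 time here and present in 33.8% of 32851 promoter windows of this length. The GC box GGGCGG was in 32.7% of windows, the TATA box TATAAA in 12.4% and AATATT, an AT-rich word of the kind SALL4 binds, in 6.17%, each searched on both strands with overlapping matches counted. None of these 3 words is in the window shown, which says only that the letters are not there. The window holds 13 CpG dinucleotides, more than in 68.5% of windows. The windows before 2 further RefSeq starts of Sall1, which lie inside the gene, hold 25 and 30 CpG dinucleotides and 4 and 1 GC boxes, and gene-level counts do not tell which start was used. Of the 5 genes, windows were available for Sall1 and Sall2, and none for Zbtb16 or Sall4. Any window on chromosome 18, where Sall3 lies, was left out.

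Total counts ran from 19047148 to 19804951 per library, and 3 counts equal 0.149 to 0.169 CPM (library-size-scaled counts with TMM factors). The lowest count of any member in any library was 25, for Sall2. As the check of the labels, Tex11 stood at 66.4 CPM in WT replicate 1 and 126 CPM in WT replicate 2, against 22.7 CPM in library A and 9.32 CPM in library B. The germ cell genes Ddx4, an RNA helicase, and Dazl, an RNA-binding protein, were present in every library, Ddx4 at 214 to 531 CPM and Dazl at 552 to 1194 CPM. Genes of a list of 25 fibroblast markers took 2.03% of counts in WT replicate 1, 0.669% in WT replicate 2, 0.0697% in A and 0.801% in B, and none of them was at 0. A list of 14 macrophage genes took 0.0655%, 0.0584%, 0.00307% and 0.137% in the same order. Of the 12 Sertoli genes, with 0.0570% to 0.0715% of counts, 7 passed the count filter. The FSH receptor gene Fshr was at 0 in all 4 libraries. Most of that share came from Dmrt1, at 541 to 679 CPM, which also counts among the factors of undifferentiated spermatogonia below. The share therefore says little about Sertoli cells. Mean log2 CPM of the list was 3.41 for WT replicate 1, 3.40 for WT replicate 2, 2.67 for A and 2.79 for B. The 9 myoid genes took 0.00298% to 0.0253%, the 9 endothelial genes 0.00426% to 0.0105% and the 7 Leydig genes 0.00101% to 0.00150%.

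Per unit of transcript length Zbtb16 was the most abundant of the 5 genes and Sall4 the next in each of the 4 libraries. Zbtb16 had 37.8 and 66.6 FPKM (fragments scaled by transcript length and library size, the authors' values) in WT replicates 1 and 2, against 114 and 95.6 FPKM in A and B. Both Tex11PM/Y libraries were above both WT libraries, and WT replicate 1 was the lowest. Zbtb16 stood above 92.6% to 98.8% of the genes detected in a library, and ranked 330th of all genes in library A and 1825th in WT replicate 1. Sall4 had 23.9 and 40.9 FPKM in WT and 46.7 and 36.2 FPKM in Tex11PM/Y. Its groups overlapped, since library B lay below WT replicate 2.

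Sall1 lay near Sall3 in WT and nearer to Sall4 in Tex11PM/Y. It had 4.69 and 11.2 FPKM in WT replicates 1 and 2, and 33.0 and 25.1 FPKM in A and B. The groups did not overlap, and WT replicate 1 was again the lowest. Sall3, a family member known from neural and limb development, had 7.84 and 5.22 FPKM in WT and 9.06 and 5.32 FPKM in Tex11PM/Y, with overlapping groups. Sall1 stood below Sall3 in WT replicate 1 and above it in the other 3 libraries, so their order was not settled in WT, whereas in A and B each Sall1 value exceeded each Sall3 value. Sall2, a family member whose loss impairs closure of the optic fissure, was the lowest in every library. It had 0.863 and 0.231 FPKM in WT and 0.291 and 0.239 FPKM in A and B, from 98, 25, 35 and 28 counts. WT replicate 1 alone stood apart, and the other 3 libraries were close to each other. The FPKM of a member was between 0.803 and 1.02 times the value computed from its count, exonic length and library total, and both scales gave each gene the same order of libraries, except that WT replicate 2 and library B of Sall3 changed places.

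**Figure D1:**
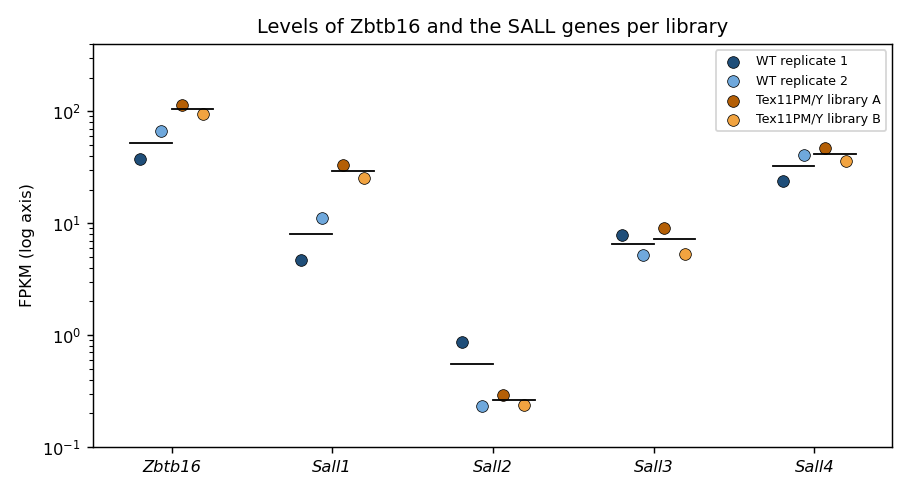
Deposited FPKM (log axis) of Zbtb16 and the 4 SALL genes in 2 WT and 2 Tex11PM/Y libraries; each point is a library and each horizontal line a mean of 2. Zbtb16 and Sall1 lie higher in both Tex11PM/Y libraries, Sall3 and Sall4 overlap, and Sall2 is high in WT replicate 1 only (0.863 FPKM).

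The make-up of SALL transcripts therefore differed between libraries. Of the FPKM summed over the 4 SALL genes, Sall4 made up 64.1% and 71.0% in WT and 52.4% and 54.1% in Tex11PM/Y. Sall1 made up 12.6% and 19.5% in WT and 37.1% and 37.5% in A and B. Sall3 fell between 7.95% and 21.0%, with its highest share in WT replicate 1, and Sall2 took at most 2.31%. The sum was 37.3 and 57.6 FPKM in WT and 89.0 and 66.9 FPKM in A and B, so the groups of the sum did not overlap, while those of Sall4 did. Sall1 was picked for its direction and is part of this sum.

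In CPM, which served the comparison of genotypes, Sall1 had 32.9 and 71.6 in the WT pair, against 208 and 154 in Tex11PM/Y, or 52.2 ± 27.4 against 181 ± 38.2 CPM (SD, n = 2 each). The fitted log2 fold change was 1.79 (standard error, SE, 0.43) and the ratio of mean CPM 3.47. Zbtb16 had 227 and 355 CPM in the WT pair, against 608 and 489 CPM in Tex11PM/Y, or 291 ± 90.3 against 548 ± 84.0 CPM (SD, n = 2 each). The fitted log2 fold change was 0.91 (standard error 0.34) and the ratio of mean CPM 1.88. These 2 differences describe the values that chose the genes and are given with no test. Of 17262 genes, 16.1% had both Tex11PM/Y libraries above both WT libraries, 1.16% had a larger log2 fold change than Sall1 and 8.26% a larger one than Zbtb16. In bulk RNA, fewer cells of a type and less RNA per cell cannot be told apart.

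The other 3 members, which were not chosen by their values, did not pass edgeR's threshold. Sall4 averaged 197 ± 60.7 CPM in the WT pair against 240.4 ± 46.3 CPM in A and B (SD, n = 2 for each mean; log2 fold change 0.28, SE 0.33; edgeR adjusted p = 0.895). Sall3 had 53.7 ± 16.8 and 54.3 ± 21.0 CPM (log2 fold change 0.016, SE 0.41; edgeR adjusted p = 0.995). Sall2 had 3.39 ± 3.00 and 1.58 ± 0.26 CPM (log2 fold change -1.09, SE 0.85; edgeR adjusted p = 0.884). Over all genes the adjusted threshold of 0.05 was passed by 0 genes higher (0%) and 0 lower (0%), an unadjusted p under 0.05 by 0.991% higher and 1.71% lower, and by 0 of these 3 members. DESeq2 and limma on FPKM also called 0 of these 3 members, with 1 gene in all called by DESeq2 and 0 by limma.

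Single libraries decided the sign for 3 of the members. Leaving out WT replicate 1 turned the log2 fold change of Sall2 to 0.30 and that of Sall4 to -0.022. That of Sall3 turned to -0.44 without library A and to -0.30 without WT replicate 2. With 1 library left out the value ran from 0.61 (without WT replicate 1) to 1.25 for Zbtb16 and from 1.32 to 2.44 for Sall1. Both were picked because their groups did not overlap, which fixes their sign in these fits. Each such fit leaves 1 library in a genotype.

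**Figure D2:**
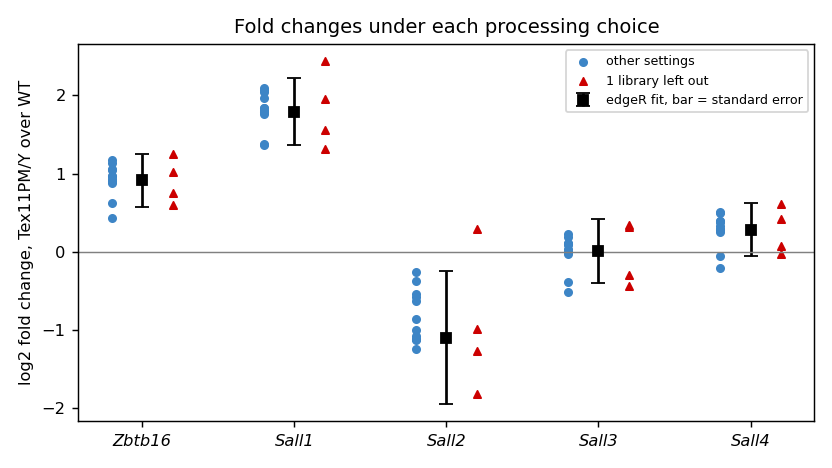
Log2 fold change (Tex11PM/Y over WT) of each member: squares are the edgeR fit with its standard error, dots other settings, and triangles fits with 1 library left out. Points of Sall2, Sall3 and Sall4 fall on both sides of 0; Zbtb16 and Sall1 were picked for being higher in both Tex11PM/Y libraries, so the side on which their triangles lie was fixed by that choice.

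Counts of 2 genes in the same library can be compared without any scaling between libraries. Zbtb16 had 1.47 and 1.48 reads per Sall4 read in the WT pair, against 2.22 and 2.35 in A and B. On the log2 scale this was 0.56 ± 0.0045 in WT and 1.19 ± 0.057 in Tex11PM/Y (SD, n = 2 each), a difference of 0.63. The WT libraries, which differed 1.56-fold in the CPM of both genes, differed in this ratio by less than the counting error of 0.027 to 0.036 log2 per library. With each library left out in turn the difference ranged from 0.59 to 0.68, and from FPKM it was 0.66. The ratio contains Zbtb16, which was picked for its rise, and 2 libraries against 2 cannot give a two-sided exact permutation p under 0.33, so no test is given.

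Sall1 had 0.213 and 0.298 reads per Sall4 read in WT and 0.762 and 0.742 in A and B. In log2 the ratio was -1.99 ± 0.34 in WT and -0.41 ± 0.027 in Tex11PM/Y (SD, n = 2 each), a difference of 1.58. Here the Tex11PM/Y libraries were close and the WT libraries apart. Zbtb16 exceeded Sall1 by 6.91 and 4.96 times in WT and by 2.92 and 3.17 times in A and B. In these libraries Sall1 thus differed more between genotypes than Zbtb16 did. Both were picked for their rise, so this is a description with no test. Sall3 had 0.425 and 0.174 reads per Sall4 read in WT and 0.253 and 0.190 in Tex11PM/Y, and its groups overlapped.

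**Figure D3:**
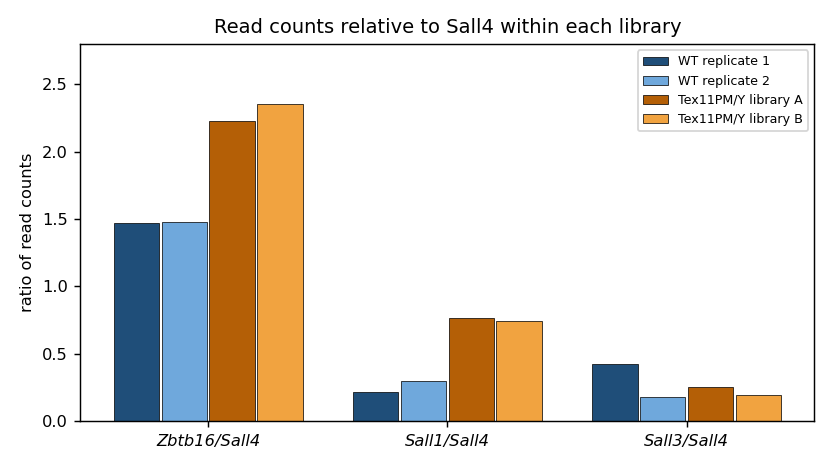
Read counts of Zbtb16, Sall1 and Sall3 divided by those of Sall4 in the same library; each bar is 1 library. Zbtb16/Sall4 stands at 1.47 and 1.48 in WT and at 2.22 and 2.35 in Tex11PM/Y, Sall1/Sall4 is higher in both Tex11PM/Y libraries, and Sall3/Sall4 overlaps.

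Fibroblast genes and the genes of chromosome 8, which holds Sall1, also differed between libraries. The fibroblast list was highest in WT replicate 1 and lowest in library A, the reverse of Zbtb16 and Sall1 at those ends. All 24 tested fibroblast genes were fitted lower in Tex11PM/Y, with 0 past the threshold in edgeR or DESeq2. Both Tex11PM/Y libraries were below both WT libraries for 5 of the 24, where 16.3% of all genes were. The list's mean log2 CPM was 6.98 in WT replicate 2 and 7.14 in library B. Its median log2 fold change was -1.62, and -0.72 without WT replicate 1 or -0.85 without library A. An edgeR unadjusted p under 0.05 was reached by 1 of the 24, where 1.71% of all genes were lower at that limit. With the mean of that list as a covariate the log2 fold change was 0.62 for Zbtb16, 1.37 for Sall1, -0.052 for Sall4, -0.39 for Sall3 and -0.86 for Sall2. The covariate is tied to genotype and the libraries are few, so that fit cannot separate it from genotype and these values only describe. Relative to the mean of Ddx4 and Dazl the log2 fold change was 0.43 for Zbtb16, 1.37 for Sall1, -0.20 for Sall4 and -0.51 for Sall3. Among germ cell list genes with a mean of at least 10 CPM, Ddx4 (0.54) and Dazl (0.49) had the largest positive log2 fold changes. Of the 13 genes of that list 5 were fitted higher and 8 lower, with a median of -0.047. Relative to all 13 the log2 fold change was 1.13 for Zbtb16, 2.07 for Sall1, 0.50 for Sall4 and 0.19 for Sall3. That list holds Thy1, which had 160 and 56.3 CPM in the WT pair, against 4.68 and 57.6 CPM in A and B. Sall2, like the fibroblast list, was highest in WT replicate 1. Genes of chromosome 8 were raised in WT replicate 1 by a median of 0.40 log2 over 921 genes against the other libraries, while Sall1 of that chromosome was lowest there. Relative to the median of its own chromosome the log2 fold change of Sall1 was 2.09.

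Zbtb16 led its gene family in every library. Among 47 BTB zinc-finger genes, most of which encode repressors, it had the highest FPKM in all 4 libraries. It exceeded the next gene 1.37-fold in WT replicate 1 and 1.80-fold in WT replicate 2, Zbtb43 in both. In library A it exceeded Patz1 2.48-fold, and in library B Zbtb43 2.29-fold. Of the summed FPKM of the family it held 9.47% and 13.1% in WT and 17.9% and 16.9% in Tex11PM/Y. The median of the other genes was 5.69 and 6.18 FPKM in WT and 8.12 and 7.17 FPKM in A and B.

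**Figure D4:**
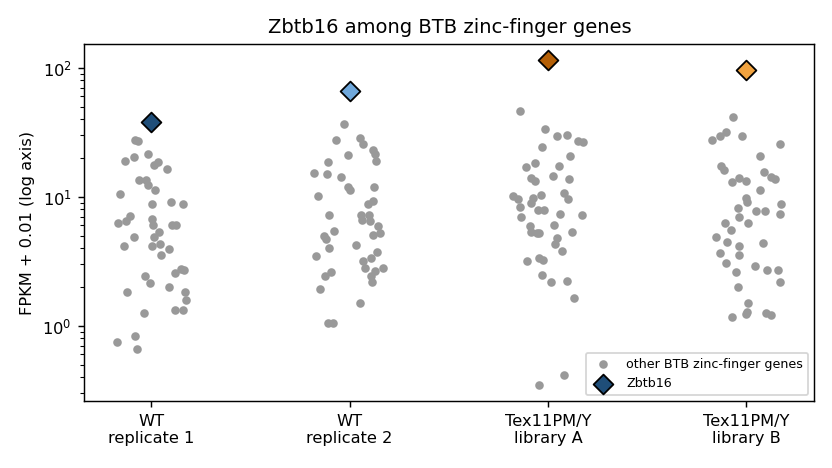
FPKM + 0.01 (log axis) of 47 BTB zinc-finger genes in each library, with Zbtb16 as a diamond and the other 46 genes as grey points spread sideways for view. Zbtb16 is the highest point in all 4 libraries, from 37.8 to 114 FPKM.

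The other BTB zinc-finger genes leaned towards higher values, with none past the threshold. Of 45 tested, 35 were fitted higher and 10 lower, with a median log2 fold change of 0.30 against 0.014 over all genes tested. This median was 0.024 with the fibroblast covariate, 0.10 without WT replicate 1 and 0.12 without library A, and above 0 in every setting run. EdgeR and DESeq2 called 0, and an edgeR unadjusted p under 0.05 was reached by 1 higher and 1 lower, against 0.991% and 1.71% of all genes. Both Tex11PM/Y libraries were above both WT libraries for 14 of the 45, where 16.1% of all genes were, and below for 3, where 16.3% were. The largest positive log2 fold changes were those of Zbtb20 (1.01), Zbtb37 (1.01) and Zbtb41 (0.96), each highest in library A. The largest negative ones were those of Zbtb4 (-1.39), of Bcl6b (-1.35), a GDNF-responsive gene of SSC self-renewal, and of Zbtb7b (-1.27), which directs CD4 T cell fate. Bcl6b had 61.0 and 26.8 CPM in the WT pair, against 19.2 and 15.1 CPM in A and B, so its groups did not overlap and ran the other way from Zbtb16.

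Genes of the NuRD complex, the corepressor that SALL proteins recruit, had no common direction. Of 15 genes 8 were fitted higher and 7 lower, and 0 passed in edgeR or DESeq2. An edgeR unadjusted p under 0.05 was reached by 0, against 0.991% of all genes higher and 1.71% lower. The median log2 fold change was 0.016, below 0 with each library left out, and the values ran from -0.73 to 0.35. Mta1 was at the low end, with 241 and 219 CPM in the WT pair, against 97.3 and 179.5 CPM in A and B, and Chd3, a remodelling ATPase, at the high end. The list took 0.308% to 0.339% of counts in the 4 libraries.

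Of 13 corepressors and partners of PLZF, 10 were fitted higher and 3 lower, and 0 passed in edgeR or DESeq2. An edgeR unadjusted p under 0.05 was reached by 1, fitted higher, against 0.991% of all genes. Of the 13, 5 had both Tex11PM/Y libraries above both WT libraries (16.1% of all genes) and 1 had both below (16.3%). Their median log2 fold change was 0.13. Bmi1, a Polycomb gene, had 28.9 and 66.2 CPM in the WT pair, against 134.6 and 77.9 CPM in A and B (log2 fold change 1.16, SE 0.48; edgeR adjusted p = 0.884), and its groups did not overlap. The co-repressor genes Tbl1xr1 (0.62) and Ncor1 (0.50) had the next largest log2 fold changes, and the histone deacetylase gene Hdac7 the most negative (-0.78).

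Among 24 transcription factors and regulators of undifferentiated spermatogonia the direction of Zbtb16 and Sall1, which were picked for it, was not general. Of these 12 were fitted higher and 12 lower, with 0 past the threshold in edgeR or DESeq2. The median log2 fold change was -0.025 and was above 0 in some settings. At an edgeR unadjusted p under 0.05 there were 2 higher and 1 lower, against 0.991% and 1.71% of all genes. Nanos3, an RNA-binding protein of early spermatogonia, had 19.3 and 30.6 CPM in the WT pair, against 61.2 and 56.6 CPM in A and B. Sox3, an X-linked factor of undifferentiated spermatogonia, had 105 and 178 CPM in the WT pair, against 320 and 292 CPM in A and B. Both were apart between the genotypes in the direction of Zbtb16, with log2 fold changes of 1.24 and 1.11 (edgeR adjusted p = 0.884 for each). Of the 24 genes, 5 had both Tex11PM/Y libraries above both WT libraries, where 16.1% of all genes did. Another 4 had both below, where 16.3% of all genes did. Etv5, a target of GDNF signalling, ran from 66.0 to 247 CPM with its highest value in WT replicate 1 (log2 fold change -0.95, edgeR adjusted p = 0.884). By FPKM Zbtb16 ranked 8th and 6th in WT and 4th and 6th in A and B among these 24 genes together with Zbtb16, Sall4 and Sall1, and Dmrt1 ranked 1st in each library. Sall1 ranked 20th and 19th in WT and 11th and 16th in A and B.

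Genes reported downstream of PLZF or SALL4 had no common direction. Of 14, 5 were fitted higher and 9 lower, with 0 past the threshold in edgeR or DESeq2. The median log2 fold change was -0.10 (0.16 without WT replicate 2, -0.23 without library B and 0.11 on log2(TPM + 1)). At an edgeR unadjusted p under 0.05 there were 1 higher and 1 lower, against 0.991% and 1.71% of all genes. Bmi1 is on this list as well as on that of PLZF partners. Kit was nearly level, with 31.9 and 29.2 CPM in the WT pair, against 28.6 and 28.7 CPM in A and B (log2 fold change -0.093, SE 0.36; edgeR adjusted p = 0.972). Ddit4 had 230.3 and 398 CPM in the WT pair, against 132 and 232 CPM in A and B, with library B between the WT values (log2 fold change -0.79, SE 0.40; edgeR adjusted p = 0.884). Cdkn1a, a cell cycle inhibitor, held 310.4 and 101 CPM in the WT pair, against 47.9 and 104 CPM in A and B, and its groups overlapped. Foxo1, needed for SSC maintenance, had 250.4 and 283 CPM in the WT pair, against 314 and 350.3 CPM in A and B (log2 fold change 0.32, edgeR adjusted p = 0.884).

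The genes with the most similar profiles were found by the root mean square distance between log2 CPM values centred on each gene's mean, over 4 libraries. The 9481 genes compared had a mean of at least 10 CPM. Members, predicted genes, pseudogenes and genes with clone-type or duplicate names were left out. Percentages of nearer genes refer to this set. Nearest to Zbtb16 were Pnldc1, which trims piRNA ends (0.051), Rnf146, a ubiquitin ligase (0.052), the kinesin gene Kif5a (0.065), the DNA helicase gene Ddx11 (0.081) and the peptidase gene Erap1 (0.082). Pnldc1 had 39.9 and 58.6 CPM in the WT pair, against 98.4 and 78.6 CPM in A and B. Nearest to Sall1, at larger distances, were the intermediate filament gene Synm (0.19), Zfp420 (0.26), Slc25a35 (0.28), the semaphorin receptor gene Plxnb1 (0.29) and Ccdc141 (0.32). Synm had 9.83 and 23.4 CPM in the WT pair, against 49.0 and 38.8 CPM in A and B. The 5 genes nearest to Sall4, which itself varied less over the libraries, were Zfp184, Mycbp2, Cab39, C2cd5 and Tdrd3 at 0.014 to 0.025. Zbtb16 lay at 0.50 from Sall1, with 0.886% of genes nearer, and Sall4 lay at 0.81, with 16.6% nearer. From the side of Zbtb16, 37.1% of genes were nearer than Sall1, and Sall4 was closer than Sall1, at 0.32 with 10.9% of genes nearer. Both Zbtb16 and Sall1 were picked for being higher in A and B, which brings their profiles together.

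**Figure D5:**
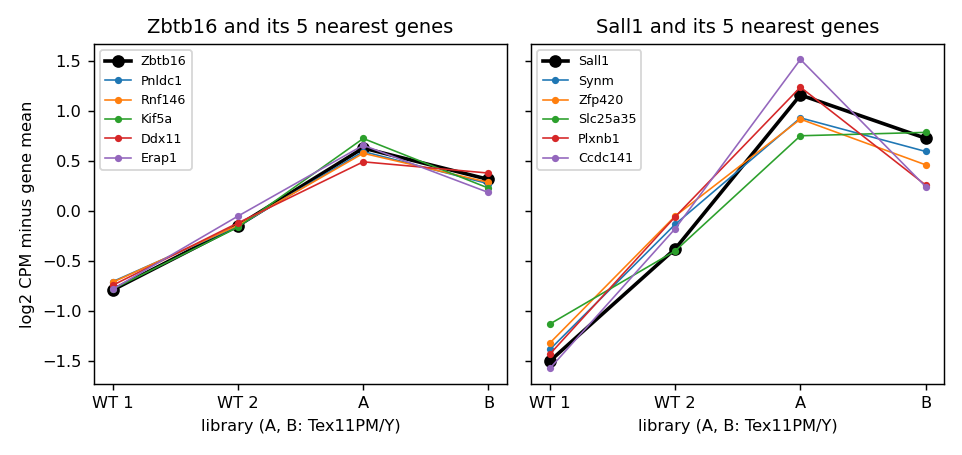
Log2 CPM minus the gene's own mean in the 4 libraries (WT 1 and WT 2, Tex11PM/Y A and B) for Zbtb16 and Sall1 in black, each with its 5 nearest genes; lines only join the points of a gene. The genes around Zbtb16 lie within 0.051 to 0.082 of it (root mean square), and those around Sall1 within 0.19 to 0.32.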

How the data were processed

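Poly(A) RNA was sequenced in 4 libraries. Per the submitters' processing notes, the genome build was mm10 and the tools included STAR, fastp, StringTie, featureCounts and DESeq2, with no roles given. The authors deposited raw read counts, FPKM values and TPM values per gene, per the file headers. The Tex11PM/Y columns share a name and cannot be tied to replicate numbers.

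Counts were fitted with edgeR 4.0.16 under R 4.3.3 (TMM scaling, filterByExpr, robust quasi-likelihood F test, genotype as the only term), with Benjamini-Hochberg adjustment over 17262 genes and a threshold of 0.05. Standard errors were derived from the fold change and its F value. Log2 CPM used a prior count of 2. Alternatives used DESeq2 1.42.0, limma 3.58.1 on log2(FPKM + 1), log2(FPKM + 0.1) and log2(TPM + 1), other scalings and filters, and each library left out.

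The members and lists were chosen with earlier results of these data known. Genes named were the members, list genes with the 3 largest changes each way at a mean of 10 CPM or more, the 5 nearest profiles, Tex11, Kit and Ddit4, and genes overlapping a member. Etv5 and Foxo1 come under the lists, and Thy1 under the germ cell list. Ddx4, Dazl, Fshr, Zbtb43, Patz1 and Dmrt1 were named after their values were seen.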

Additional observations from a re-analysis of the deposited data

How the results depend on the processing

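Zbtb16 and Sall1 were picked for non-overlapping higher values in Tex11PM/Y, so their sign with a library left out was fixed by that choice and shows no stability. Zbtb16 moved to 0.43 relative to Ddx4 and Dazl and stood at 1.13 relative to the germ cell list. Both scalings were added after the data were seen. With a library left out Zbtb16 ran from 0.61 to 1.25 and Sall1 from 1.32 to 2.44. Sall3 changed sign with no filter on low counts (-0.024), with the fibroblast covariate (-0.39) and relative to Ddx4 and Dazl (-0.51), and ran from -0.44 to 0.35 with a library left out. Sall4 changed sign with the fibroblast covariate (-0.052) and relative to Ddx4 and Dazl (-0.20), and ran from -0.022 to 0.62. Sall2 kept its sign in the 12 other settings, from -1.24 to -0.26, and ran from -1.82 to 0.30. The fibroblast covariate is tied to genotype, and with so few libraries its fit cannot separate them. The cause of these changes was not tested. The Sall3/Sall4 log2 ratio difference ran from -0.95 to 0.33 with a library left out. Genes called over the whole table were 1 higher with DESeq2, 16 higher and 34 lower with no count filter, and between 0 and 74 higher and between 0 and 444 lower with a library left out, the largest counts without library B. List medians moved by less than 0.2 log2 in 84 of 108 cases with all libraries kept and in 25 of 48 with a library left out. No paired analysis was possible because both Tex11PM/Y columns carry the same replicate number. At 25 to 98 counts, Sall2 is the member whose level depth limits most.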
